A study of Mus musculus with 6 samples.

Results

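The 10 genes described here encode the Ena/VASP proteins (Evl, Enah and Vasp), the WAVE proteins (Wasf1, Wasf2 and Wasf3), the WASP proteins (Was and Wasl) and the Abi subunits of the WAVE complex (Abi1 and Abi2). They were taken by gene symbol, with no cutoff on their measured values but with earlier results of these data known. All 10 were found among the 23038 genes listed. Of these, 9 passed the filter on low counts that left 12665 genes for testing. Was did not. Transcripts were measured by poly-A RNA sequencing in NSC-34 cells, a mouse hybrid line of neuroblastoma and spinal cord motor neuron origin. The cells were transfected either with a control siRNA (siNC) or with siRNA that targets Qk (siQk), 3 libraries each. Qk is the gene of the Quaking RNA-binding proteins. Both groups were grown alike in medium with fetal calf serum. 3 siRNAs against Qk were used, and the labels do not say which library received which. The methods describe independent cultures, all of 1 cell line. The spread between libraries is thus that between cultures of that line, and in siQk it may include differences between the siRNAs.

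Actin filaments that push the edge of a growth cone or lamellipodium are nucleated as branches by the Arp2/3 complex and lengthened at their fast-growing ends. WASP and WAVE proteins switch the Arp2/3 complex on. WAVE proteins do so within a complex held together by Abi, Cyfip, Nckap1 and Brk1 and released by the GTPase Rac, whereas the neural WASP encoded by Wasl is opened by Cdc42. Ena/VASP proteins bind filament ends, recruit profilin-bound actin and shield the ends from capping protein. In neurons these proteins act in filopodia, axon guidance and branching.

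Library totals ran from 43000503 to 53565950 expected counts. siNC replicate 3 had the lowest total and the lowest TMM scaling factor, 0.957 against 0.999 to 1.02 in the other 5 libraries. Qk itself was at 9.68, 8.18 and 14.9 RPKM (reads per kilobase of exon, scaled to the library total) in siNC replicates 1 to 3 and at 1.39, 1.71 and 1.10 RPKM in siQk replicates 1 to 3. Every siQk library lay below every siNC library (log2 fold change -3.0, SE 0.34, edgeR adjusted p = 0.0149). The call was lost without siNC replicate 1 (-3.1, edgeR adjusted p = 0.125). The neuroblastoma markers were all expressed (8 of 8 tested, summed level 332 to 528 RPKM in siNC and 398 to 494 in siQk), and 5 of 8 motor neuron markers were tested (summed level 617 to 1030 RPKM in siNC and 475 to 767 in siQk). Most of the motor neuron sum was the intermediate filament gene Prph (698 RPKM in siNC) and Nefh (64.3), with Isl2 at 3.43 and Slc18a3 at 2.02, while the defining genes Chat (0.051 RPKM in siNC, 0.126 in siQk) and Mnx1 (0.041 and 0.038) were near 0. Isl1, another motor neuron marker, differed between the groups at 4.79 ± 0.037 RPKM in siNC and 8.59 ± 0.937 in siQk (SD, n = 3), and did not reach the call. Oligodendrocyte lineage markers summed to 9.62 to 10.2 RPKM in siNC and 8.49 to 11.6 in siQk (4 of 8 tested), astrocyte markers to at most 0.495 RPKM (0 of 5 tested, Aqp4 at 0) and fibroblast or mesenchyme markers to 9.76 to 14.8 RPKM in siNC and 3.57 to 11.3 in siQk (2 of 7 tested, Lum at 0). Most of the fibroblast or mesenchyme sum was Thy1 (8.51 RPKM in siNC, 5.72 in siQk) and Pdgfrb. Col1a1 (0.045 RPKM in siNC, 0.081 in siQk) and Dcn (0.053 and 0.020) were near 0. Pdgfrb (4.01 ± 1.13 RPKM in siNC, 2.04 ± 1.06 in siQk) was lower in all siQk libraries (SD, n = 3) and was not called. The part of these differences in the values of the actin regulators was not tested.

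Evl was examined first. It lies on chromosome 12, 108554720 to 108688516 on the plus strand of GRCm38, and its annotated transcripts differ, among other places, by 2 internal exons. One of 136 bases at 108636249 to 108636384 is in 1 of 5 coding transcripts spanning it and takes up 4.93% of the counted exon bases. The other is a 63-base coding exon at 108683348 to 108683410, in 3 of 5. It is shown because the measurement joins transcripts with and without it. It takes up 2.29% of the exon bases over which Evl was counted, so a gene-level count cannot separate transcripts with and without it, and the use of this exon was not analysed here. In the transcript that holds it as exon 11 it reads as follows, 5′ to 3′, with the exon in capitals and 30 bases of each neighbouring exon in lower case.

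Evl exon 11 in its transcript: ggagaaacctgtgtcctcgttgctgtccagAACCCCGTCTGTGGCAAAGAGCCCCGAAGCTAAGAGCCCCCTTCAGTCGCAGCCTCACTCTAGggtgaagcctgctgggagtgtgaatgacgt

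At the gene level Evl was measured at 30.9, 26.7 and 12.7 RPKM in siNC replicates 1 to 3 and at 29.6, 25.8 and 28.4 RPKM in siQk replicates 1 to 3. The 3 siQk libraries lay within the range of the siNC libraries, and siNC replicate 3 alone was low. That library held 44.1% of the mean of the other 2 control libraries, which was 28.8 RPKM and close to the siQk mean of 27.9 RPKM. With all libraries the group means were 23.4 ± 9.52 RPKM in siNC and 27.9 ± 1.96 in siQk (SD, n = 3, two-sided exact permutation p = 0.7). The log2 fold change was 0.24 (SE 0.38, edgeR adjusted p = 1.0) and ran from -0.042 without siNC replicate 3, the reverse direction, to 0.49 without siNC replicate 1. Evl rested on 1504 to 4334 counts per library, so counting error was far below the spread between libraries.

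Evl shares 278 exon bases with Degs2, a gene on the opposite strand whose product is a sphingolipid desaturase and hydroxylase. The library kit named in the methods keeps no strand, so reads from these bases cannot be assigned to either gene. Degs2 was at 2.28 RPKM in siNC replicate 3 and at 4.38 to 5.12 RPKM in the other 5 libraries, and its log2 CPM followed that of Evl with a Pearson correlation of 0.989 over 6 libraries and 0.780 without siNC replicate 3. The Abi1 locus also overlaps a gene on the other strand, Pdss1, by 194 exon bases. Pdss1 was at 15.6, 16.7 and 17.1 RPKM in siNC replicates 1 to 3 and at 18.7, 18.5 and 17.4 RPKM in siQk replicates 1 to 3. Its groups did not overlap in RPKM but did in TMM-scaled log2 CPM, and it was not called. Its correlation with Abi1 was 0.580.

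The 5 genes whose log2 CPM followed Evl most closely over the 6 libraries were Rplp0, Il17d, Rps15a-ps6, Apeh and Rps21, with Pearson correlations of 0.993 to 0.998. They were chosen for this likeness, so the values are a description. All 5 were lowest in siNC replicate 3, like Evl. The large ribosomal subunit gene Rplp0 was at 667 RPKM there and at 1556 to 1901 RPKM elsewhere. The small subunit gene Rps21 was at 647 RPKM there and at 939 to 1051 RPKM elsewhere. Apeh, which encodes an acylpeptide hydrolase, was at 13.1 RPKM there and at 22.9 to 25.3 RPKM elsewhere. Without siNC replicate 3 the correlations with Evl were 0.897 to 0.974. Among the other members the correlation with Evl ran from -0.860 for Wasl to 0.535 for Vasp, with Abi1 at -0.779 and Enah at 0.153. All these correlations share the same 6 libraries and their scaling.

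**Figure D1:**
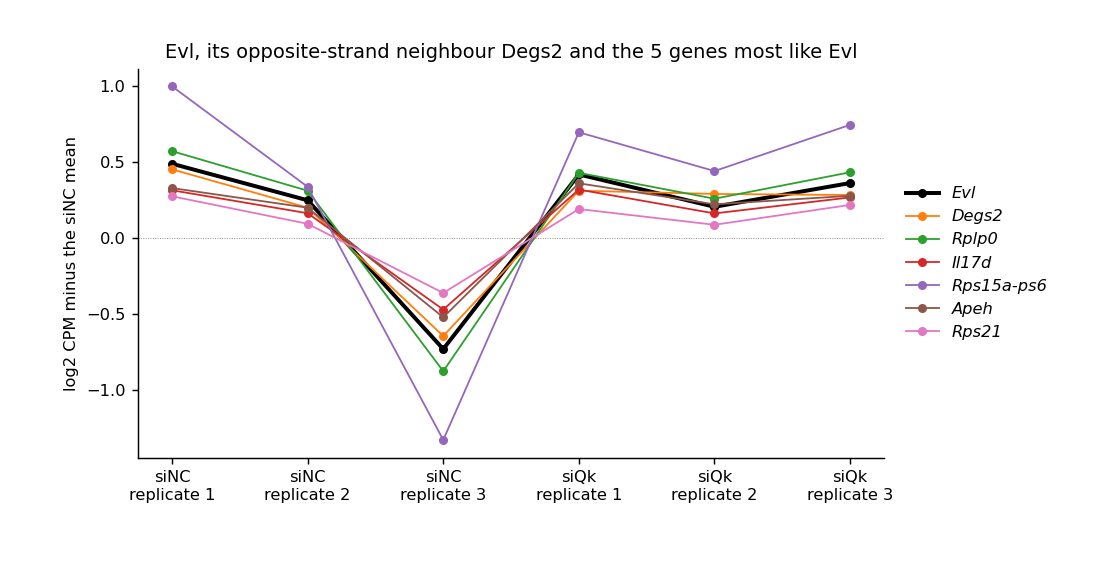
Log2 CPM of Evl, of Degs2 and of the 5 genes most like Evl in each of the 6 libraries, on the y axis as the difference from the gene's own siNC mean. Lines join the values of a gene; the point of siNC replicate 3 lies below 0 for all 7 genes and the 3 siQk points lie above 0.

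Enah encodes the mammalian Ena protein and was the most abundant of the 10 transcripts. It was at 62.2, 82.0 and 65.1 RPKM in siNC replicates 1 to 3 and at 77.7, 96.1 and 75.3 RPKM in siQk replicates 1 to 3. The groups overlapped, with siNC replicate 2 above siQk replicates 1 and 3. The means were 69.8 ± 10.7 and 83.0 ± 11.4 RPKM (SD, n = 3, exact permutation p = 0.3), and the log2 fold change of 0.23 (SE 0.15) did not pass the edgeR quasi-likelihood test (adjusted p = 1.0). It was 0.11 without siQk replicate 2 and 0.15 without siNC replicate 1. Its counts covered 4502 exon bases in the deposited gene model, against 21452 in the GENCODE annotation, so a large part of the annotated exons did not enter the value.

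Vasp encodes the founding member of the family, a focal adhesion and leading edge protein. Its level was 43.7, 31.3 and 26.2 RPKM in siNC replicates 1 to 3 and 31.8, 30.4 and 28.1 RPKM in siQk replicates 1 to 3. The siQk values lay inside the siNC range, which was spread by a high replicate 1 and a low replicate 3. The log2 fold change was -0.19 (SE 0.21, edgeR adjusted p = 1.0) and became 0.039 without siNC replicate 1. As a share of the summed RPKM of the family, Vasp made up 26.5% ± 4.92 in siNC and 21.4% ± 1.46 in siQk, Evl 17.9% ± 5.27 and 19.9% ± 2.58, and Enah the remaining 55.6% ± 8.95 and 58.7% ± 3.87 (SD, n = 3 for each). The Vasp difference of -5.11 points was -2.39 without siNC replicate 1, and the Evl and Enah differences changed sign without siNC replicate 3 and siNC replicate 1, respectively. Enah was the leading Ena/VASP transcript in all 6 libraries, at 2.02 to 5.13 times the Evl level. The family sum was 127 ± 19.9 RPKM in siNC and 141 ± 10.4 in siQk (exact permutation p = 0.5), with its lowest value, 104 RPKM, in siNC replicate 3.

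**Figure D2:**
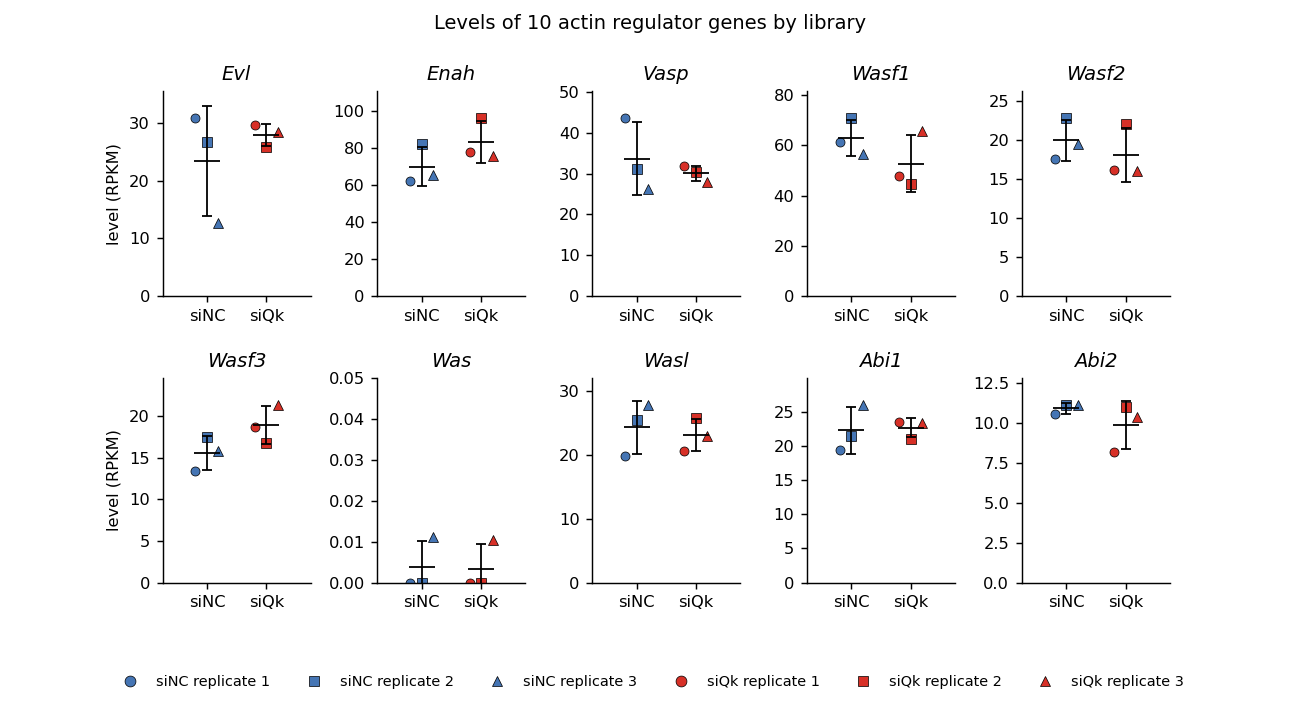
Level in RPKM (linear axis from 0, a separate scale for each gene) of the 10 genes in the 3 siNC and 3 siQk libraries, with the mean and SD of each group as bars. The groups overlap for all 10 genes; Was is at or near 0 in every library.

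Wasf1 encodes WAVE1, the WAVE protein most abundant in brain, and was the leading WAVE transcript in these cells. It was at 61.3, 70.9 and 56.6 RPKM in siNC replicates 1 to 3 and at 47.8, 44.7 and 65.7 RPKM in siQk replicates 1 to 3. Replicates 1 and 2 of siQk lay below all controls and replicate 3 lay within them. The means were 63.0 ± 7.25 and 52.7 ± 11.4 RPKM (SD, n = 3, exact permutation p = 0.3). The log2 fold change of -0.28 (SE 0.19) was the largest in size of the members and had the smallest p of the 9 tested (edgeR quasi-likelihood unadjusted p = 0.165, adjusted p = 1.0). It was -0.17 without siQk replicate 2 and -0.48 without siQk replicate 3, the latter with an unadjusted p of 0.0391 in edgeR, and the adjusted p of no member fell below 0.792 under any alternative.

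Wasf2 encodes WAVE2, the broadly expressed form that drives lamellipodia. It ranged from 17.6 to 22.8 RPKM in siNC and from 16.1 to 22.0 RPKM in siQk, so the groups overlapped (log2 fold change -0.17, SE 0.18, edgeR adjusted p = 1.0). Leaving out 1 library moved that value from -0.091 (siNC replicate 2), -0.093 (siQk replicate 1) and -0.099 (siQk replicate 3) to -0.26 (siNC replicate 1) and -0.33 (siQk replicate 2). Wasf3 encodes WAVE3, a form found mainly in neural tissue. It was at 13.4, 17.5 and 15.7 RPKM in siNC replicates 1 to 3 and at 18.6, 16.7 and 21.3 RPKM in siQk replicates 1 to 3. Replicate 2 of siNC lay above replicate 2 of siQk, and the other siQk values lay above all controls. The means were 15.5 ± 2.07 and 18.9 ± 2.32 RPKM (SD, n = 3, exact permutation p = 0.2). The fitted log2 difference was 0.26, with an SE of 0.15 and an edgeR adjusted p of 1.0, and was 0.15 without siQk replicate 3 and 0.16 without siNC replicate 1.

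The share of each paralog in its family was compared next, since RPKM values are per length. The deposited gene models were shorter than the GENCODE annotation to unequal degrees. Wasf1 had 2550 exon bases against 2854, Wasf2 4158 against 6258 and Wasf3 2685 against 5196. All comparisons of level between genes carry this limit. Wasf3 made up 14.5%, 15.7% and 17.1% of the summed WAVE RPKM in siNC replicates 1 to 3, against 22.5%, 20.04% and 20.7% in siQk replicates 1 to 3. All siQk libraries lay above all siNC libraries. The mean share was 15.8% ± 1.33 in siNC and 21.1% ± 1.30 in siQk (SD, n = 3), a difference of 5.32 percentage points, with a two-sided exact permutation p of 0.1, the smallest that 3 against 3 libraries allow. It was 1 of 8 shares compared in the 3 families with more than 1 expressed paralog, and the adjusted exact permutation p over these was 0.533. The difference stayed between 4.59 and 5.99 percentage points when libraries were left out. The share of Wasf1 was 63.95% ± 2.40 in siNC and 58.4% ± 5.11 in siQk (exact permutation p = 0.2), and that of Wasf2 20.3% ± 1.09 and 20.5% ± 5.47 (exact permutation p = 0.9). The Wasf1 difference of -5.56 points ran from -8.23 without siQk replicate 3 to -3.14 without siQk replicate 2. Set against each other, Wasf1 stood at 4.59, 4.05 and 3.60 times the Wasf3 level in siNC replicates 1 to 3 and at 2.57, 2.67 and 3.08 times in siQk replicates 1 to 3. This ratio was singled out after the shares were seen and is given as a description.

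**Figure D3:**
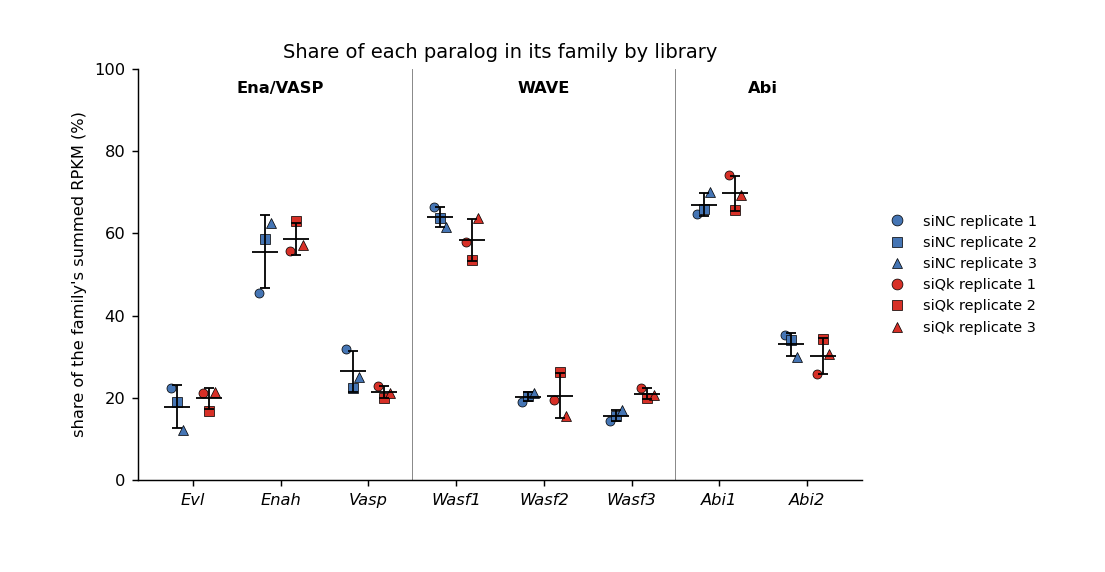
Share of each paralog in the summed RPKM of its family (y axis, percent) in the 3 siNC and 3 siQk libraries, with the group mean and SD. The Wasf3 shares run from 14.5% to 17.1% in siNC and from 20.04% to 22.5% in siQk and do not overlap; the groups overlap for the other 7 genes.

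Wasl encodes neural WASP, and Was its haematopoietic paralog. Wasl was at 19.8, 25.4 and 27.9 RPKM in siNC replicates 1 to 3 and at 20.6, 25.7 and 22.9 RPKM in siQk replicates 1 to 3. The siQk values lay inside the siNC range (24.3 ± 4.15 and 23.1 ± 2.54 RPKM, SD, n = 3). The log2 fold change was -0.11 (SE 0.18, edgeR adjusted p = 1.0), and 0.033 without siNC replicate 3. Was had 1 count in siNC replicate 3, 1 in siQk replicate 3 and 0 in the other 4 libraries. A count of 0 allows a level of up to 3 counts, or 0.0267 to 0.0314 RPKM in those 4 libraries, so no fold is given. By the observed counts, without the allowance for 0, Wasl made up at least 99.95% of the summed WASP RPKM in each library. The haematopoietic markers were low too: 1 of 10 was tested, Cd53 was at 0 in all libraries and Ptprc was at 0 in siNC, with a summed level of 9.20 to 19.5 RPKM in siNC and 12.2 to 14 in siQk, most of it Coro1a (11.5 RPKM in siNC and 11.8 in siQk).

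Abi1 and Abi2 encode the Abelson interactor subunits that link WAVE to the rest of its complex. Abi1 was at 19.4, 21.5 and 26.1 RPKM in siNC replicates 1 to 3 and at 23.5, 21.1 and 23.4 RPKM in siQk replicates 1 to 3. The siQk values again lay inside the siNC range, and the log2 fold change was -0.0060 (SE 0.16, edgeR adjusted p = 1.0), a value whose sign depended on the scaling and the libraries used. Abi2 was at 10.53, 11.1 and 11.1 RPKM in siNC replicates 1 to 3 and at 8.17, 11.01 and 10.4 RPKM in siQk replicates 1 to 3. Replicates 1 and 3 of siQk lay below all siNC libraries and replicate 2 did not (log2 fold change -0.18, SE 0.14, edgeR adjusted p = 1.0, and -0.059 without siQk replicate 1). Abi1 stood at 1.84 to 2.88 times the level of Abi2 and made up 66.9% of the pair in siNC and 69.7% in siQk (exact permutation p = 0.5), a difference of 2.83 points that was 0.575 without siQk replicate 1, 1.75 without siNC replicate 1 and up to 4.86 without siQk replicate 2. The third paralog, Abi3, was at 2.26 ± 0.339 RPKM in siNC and 2.16 ± 0.149 in siQk.

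None of the 9 members tested was called at p under 0.01 and adjusted p under 0.1 in the edgeR quasi-likelihood fit, against 0.0079% of all genes tested, which is Qk alone. None reached an unadjusted p under 0.05, against 2.89% of all genes, and none had groups of libraries that did not overlap in TMM-scaled log2 CPM, against 8.52%. DESeq2 and the exact and likelihood-ratio tests of edgeR called none of them either. Evl, Enah and Wasf3 had fold changes above 0 and the other 6 below 0, with a median of -0.11, beside a median of 0.0034 and 50.8% above 0 over all genes. The median size of the log2 change was 0.19 in the members and 0.15 in all genes, and the SE of the members ran from 0.14 (Abi2) to 0.38 (Evl).

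**Figure D4:**
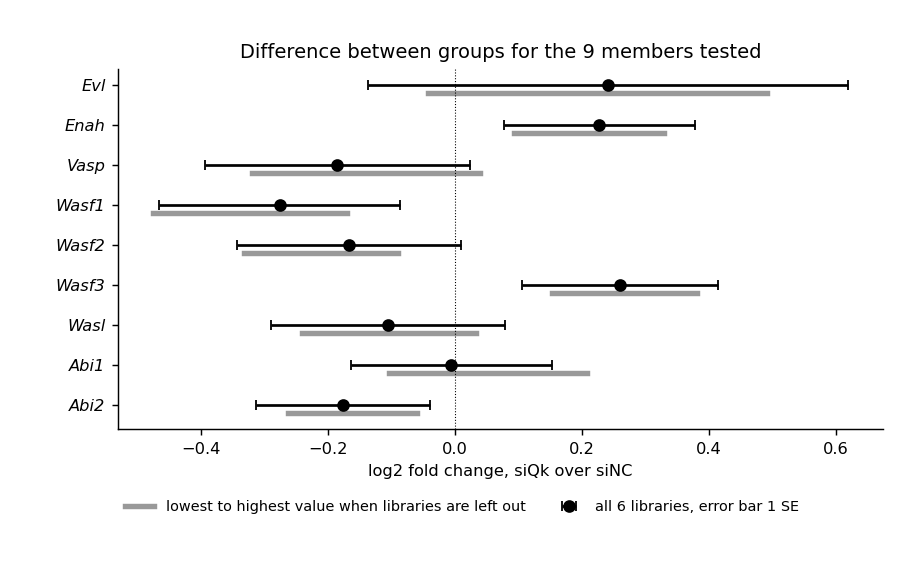
Log2 fold change of siQk over siNC (x axis) for the 9 members tested, as the edgeR estimate with 1 SE (black) and as the range of values when libraries are left out (grey). Evl has the widest error, and the grey bars of Evl, Vasp, Wasl and Abi1 cross 0.

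Ordered by their siNC mean in RPKM, the members ran from Enah through Wasf1, Vasp, Wasl, Evl, Abi1, Wasf2 and Wasf3 to Abi2, with Was at or near 0. Each neighbouring pair was compared in log2 RPKM within libraries by an exact sign permutation test over 6 libraries, whose smallest p is 0.03125. Enah lay above Wasf1, Wasf1 above Vasp and Wasf3 above Abi2 in 6 of 6 libraries (adjusted exact permutation p = 0.0833 each over 8 pairs), the smallest values among the pairs. No pair passed 0.05. Vasp lay above Wasl in 5 of 6 libraries (adjusted exact permutation p = 0.125). The 4 pairs from Wasl and Evl down to Wasf2 and Wasf3 did not separate beyond the spread between libraries (unadjusted exact permutation p = 0.156 to 0.781). Wasl lay above Evl in 1 of 6 libraries, siNC replicate 3, where Evl was low, so their order by mean rests on that library.

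The core motif bound by Quaking proteins was searched as ACTAAC or ACTAAT on the sense strand of the longest coding GENCODE transcript of each member. These windows are shown because they hold the letters of the Quaking motif within the mature transcripts measured here. A match is a description and not a bound site. The motif occurred 14 times, all in 3′ untranslated regions: 5 times in Abi2, 3 times in Abi1 and 2 times each in Enah, Wasf2 and Wasl. No match was found in Evl, Vasp, Wasf1, Wasf3 or Was. Of 12067 tested genes with such a transcript, 45.2% held at least 1 match, with 0.220 matches per kilobase over all bases, so 5 of 10 members was near the background. Abi1 with 0.882 and Abi2 with 0.867 matches per kilobase held the most. A match with a second TAAC or TAAT 1 to 20 bases away occurred in Enah, Wasf2, Abi1 and Abi2, 4 of 10 members, against 16.7% of the 12067 genes. These 4 transcripts were 3403 to 11229 bases long, above the median of 3174 bases over those genes. One 30-base window is given for each gene that holds the motif, 5′ to 3′, with the motif in capitals.

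Enah: actctcctacacACTAACttcatttgtgcg
Wasf2: tcctccatacaaACTAACagtctcatgggg
Wasl: tctttacagtacACTAATccgcctaaaggt
Abi1: tgcagcatggtcACTAACattgtgtcagac
Abi2: cagaatttttgaACTAATaagctttaacaa

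The log2 fold changes of these 5 genes after siQk were 0.23 for Enah, -0.17 for Wasf2, -0.11 for Wasl, -0.0060 for Abi1 and -0.18 for Abi2, none past the edgeR quasi-likelihood threshold. The 4 tested members with no match spanned the range from Wasf1 at -0.28 to Wasf3 at 0.26. The motif in introns, where it can lie beside alternative exons, was not analysed here.

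The start regions of Evl and Was are set side by side because Evl was expressed in all 6 libraries and Was was at or near 0 in all of them. Each window runs from 250 bases before to 50 bases after the RefSeq start on GRCm38.p6, read 5′ to 3′ on the gene's strand, with every CG in capitals. The Evl window is chr12:108554470-108554769 on the plus strand and the Was window chrX:8090442-8090741 on the minus strand.

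Evl: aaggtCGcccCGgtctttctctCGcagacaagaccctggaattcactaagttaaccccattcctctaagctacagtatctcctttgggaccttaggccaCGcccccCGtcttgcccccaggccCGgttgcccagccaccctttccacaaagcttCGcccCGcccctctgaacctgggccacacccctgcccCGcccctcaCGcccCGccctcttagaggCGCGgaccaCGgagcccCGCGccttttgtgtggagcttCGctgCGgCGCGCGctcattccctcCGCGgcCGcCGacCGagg
Was: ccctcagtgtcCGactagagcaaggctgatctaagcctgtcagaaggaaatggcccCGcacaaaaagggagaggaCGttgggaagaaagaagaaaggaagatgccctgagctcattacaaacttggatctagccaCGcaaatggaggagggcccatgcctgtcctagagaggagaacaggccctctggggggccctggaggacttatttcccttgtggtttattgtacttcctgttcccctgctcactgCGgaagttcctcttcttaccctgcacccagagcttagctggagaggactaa

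The Evl window holds 26 CG pairs, with 66.3% G and C and an observed over expected CG ratio of 0.87. The Was window holds 5, with 53.3% G and C and a ratio of 0.23. A window with G and C above 50% and a ratio above 0.6 was counted as CpG-rich, which held for 73.4% of the genes tested that have one and for 10.8% of the genes with at most 3 counts in all 6 libraries. Enah (ratio 0.94, 49 CG pairs), Wasl (0.92), Wasf2 (1.02) and Wasf1 (0.65) were CpG-rich as well. Abi1 passed at 1 of its 2 annotated starts (0.63 and 0.55). Vasp (0.59) lay just under the limit, and Wasf3 had 5 CG pairs and a ratio of 0.27 while being expressed at 13.4 to 21.3 RPKM. A second Evl start, chr12:108605516-108605815, had 4 CG pairs and a ratio of 0.20. Gene-level counts do not say from which start Evl was transcribed.

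The partners of these genes were read from lists of pathway genes. Of 65 genes listed, 56 were tested, of which 24 lay above and 32 below 0 with a median log2 fold change of -0.019. None was called and none had an unadjusted p under 0.05 in the edgeR quasi-likelihood fit. DESeq2 and the other edgeR tests called none of the 56 either. For 3 of them the siQk libraries lay below all siNC libraries in TMM-scaled log2 CPM, beside 8.52% of all genes. These were Arpin (41.1 ± 0.691 RPKM in siNC, 37.3 ± 3.06 in siQk) and Pick1 (26.3 ± 5.71 and 22.7 ± 0.421), inhibitors of the Arp2/3 complex, and Capzb, the beta subunit of capping protein (174 ± 8.01 and 150 ± 20.6), each SD with n = 3. In RPKM, which is scaled to the library total alone, the groups of Pick1 overlapped, with siNC replicate 3 at 22.4 RPKM below siQk replicates 1 and 3.

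The WAVE complex has 5 subunit positions, and the summed RPKM of the paralogs at each was compared. In siNC the Wasf position was at 98.5 ± 11.03 RPKM, Nckap1 with Nckap1l at 95.3 ± 16.3, Brk1 at 95.4 ± 4.20, the 3 Abi paralogs at 35.5 ± 3.37 and Cyfip at 22.0 ± 2.02 (SD, n = 3). In siQk the same positions were at 89.7 ± 11.7, 94.2 ± 4.49, 88.4 ± 11.6, 34.7 ± 1.10 and 20.7 ± 0.431 RPKM. No position differed beyond the spread between libraries (exact permutation p = 0.4 to 1.0). The Cyfip position was filled by Cyfip1 (22.0 RPKM in siNC), with Cyfip2 at 0.0114 RPKM. The list of WAVE complex partners had 5 of 6 genes tested, all 5 with a log2 fold change below 0 and a median of -0.12, or -0.013 without siNC replicate 3 and -0.030 without siQk replicate 2. Nckap1 and Brk1 were its most abundant genes, and Nckap1 stood at 89.3 ± 15.5 RPKM in siNC and 88.5 ± 3.56 in siQk (SD, n = 3).

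**Figure D5:**
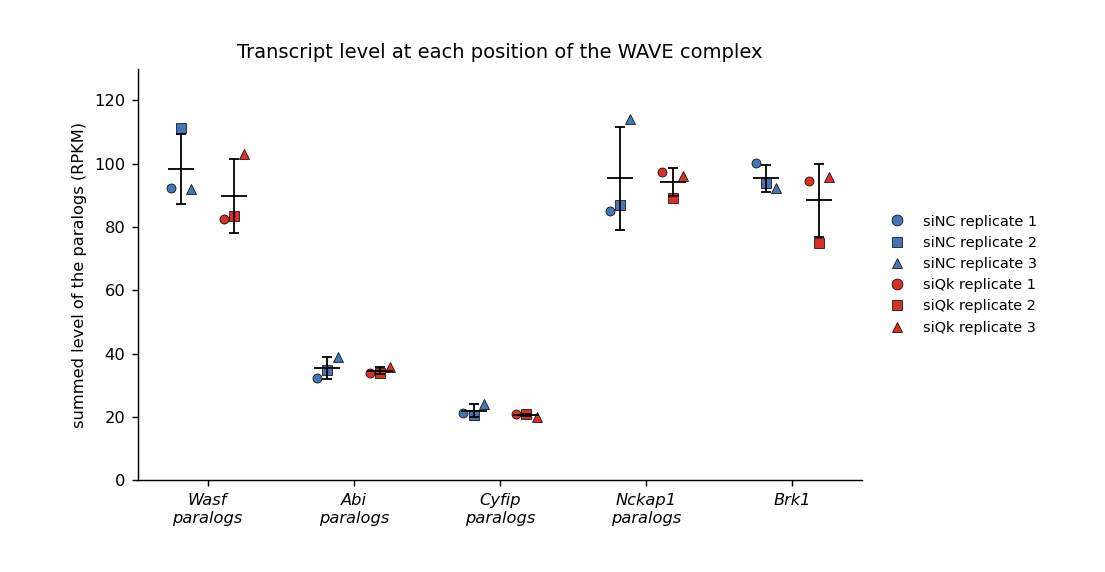
Summed level in RPKM (y axis, linear from 0) of the paralogs at each of the 5 positions of the WAVE complex in the 3 siNC and 3 siQk libraries, with the group mean and SD. The Wasf, Nckap1 and Brk1 positions lie between 75.1 and 114 RPKM and the Abi and Cyfip positions between 20.2 and 39.1 RPKM, with overlapping groups at all 5.

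Among the genes downstream and upstream of the members, the 10 Arp2/3 subunits tested split evenly, 5 above and 5 below 0, with a median of -0.0040 that ran from -0.056 to 0.056 when libraries were left out. Arpc2 was the highest of them at 440 ± 44.7 RPKM in siNC and 451 ± 56.0 in siQk, followed by Arpc3 at 130 ± 8.45 and 138 ± 12.3. The 5 Arp2/3 inhibitors tested all lay below 0 (median -0.16, or from -0.28 without siNC replicate 3 to -0.072 without siQk replicate 2), with Arpin and Gmfb (36.3 ± 4.83 and 35.5 ± 2.97 RPKM) the most abundant. Of the WASP partners and other nucleation promoters, 6 of 9 lay above 0 (median 0.043). That median turned to -0.037 without siNC replicate 3, to -0.016 without siQk replicate 2 and to -0.19 without both, and was 0.19 without siQk replicate 1 and 0.088 without siQk replicate 3. Its most abundant genes were cortactin (Cttn), at 111 ± 10.2 and 113 ± 8.09 RPKM, and Fnbp1l, a membrane-bending activator of neural WASP, at 42.04 ± 3.68 and 44.1 ± 2.14. Jmy, the nucleation promoter with the smallest p in all these lists, had a log2 fold change of -0.44 (edgeR quasi-likelihood unadjusted p = 0.109).

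Of the Ena/VASP partners, 9 of 11 were tested and 8 lay above 0 (median 0.083, or from 0.025 without siNC replicate 3 to 0.25 without siNC replicate 2). Profilin 1 (Pfn1), which hands actin to Ena/VASP proteins, was at 296 ± 26.5 RPKM in siNC and 314 ± 17.2 in siQk, and Pfn2 at 58.5 ± 10.4 and 65.6 ± 4.01 (SD, n = 3). Rac1, the activator of the WAVE complex, was at 181 ± 32.3 and 180.1 ± 12.95 RPKM, and Cdc42, the activator of neural WASP, at 178 ± 38.8 and 187 ± 20.7. Capping and severing factors split 3 above and 5 below 0 (median -0.043, or 0.033 without siNC replicate 3, 0.011 without siQk replicate 3 and -0.11 without siNC replicate 2), with cofilin (Cfl1) the highest at 429 ± 83.8 and 452 ± 16.5 RPKM. Of the actins, 2 of 5 were tested, Actb at 1215 ± 179 and 1168 ± 18.9 RPKM and Actg1 at 28.8 ± 1.68 and 22.2 ± 9.47. The actin genes are near-identical to each other and to processed copies, so how reads were divided among them is uncertain.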

How the data were processed

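Poly-A RNA of NSC-34 cells was sequenced by the authors in 6 libraries as read pairs, aligned (OLego) and counted by gene (Quantas). The labels give mm10 as the genome build. The authors deposited, for each gene and library, an expected count (tag number, not always whole: 21.8% to 22.8% were fractions), the exon length and an RPKM value, which the authors scaled by exon length and library total. Values join all isoforms of a gene.

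Expected counts were rounded, genes with a TMM-scaled mean log2 CPM above 0 were kept, and siQk was compared with siNC with edgeR 4.0.16 under R 4.3.3 (glmQLFit and glmQLFTest, a quasi-likelihood test), with Benjamini-Hochberg adjustment over 12665 genes and the cutoffs of the study (p under 0.01, adjusted p under 0.1). SE values come from log2 CPM (prior count 2). Levels are RPKM, tested with two-sided exact permutation over 20 arrangements. At 43000503 to 53565950 counts per library, the spread between libraries limits the precision more than counting error does. The scripts were tested on simulated data. Same-numbered libraries were not treated as pairs.

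The members, lists and tests were chosen with earlier results of these data known. Named genes are the members, Qk, the 2 most abundant genes of each pathway list and any called or at an unadjusted p under 0.05, the 5 genes most like Evl, and markers near 0 or moving with a group. Abi3, Cyfip1, Cyfip2, Jmy, Pick1, Degs2, Pdss1, Coro1a, Prph, Nefh, Isl2, Slc18a3 and Thy1 were named after their values were seen. 5 listed genes were matched through older symbols. The counts of 1 pathway list and the values of 1 marker are not reported here. Gene positions are from GENCODE M21 (GRCm38), and start regions from RefSeq (GRCm38.p6, 9 of 10 members). Alternatives were other scalings, filters and tests (with DESeq2 1.42.0), a replicate block and leaving out libraries.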

Additional observations from a re-analysis of the deposited data

How the results depend on the processing

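No member was called under any of the 16 alternatives. The number of all genes called was 1 with the reported settings, 5 with the edgeR exact test, 5 with the edgeR likelihood-ratio test, 19 with DESeq2 and 0 to 1 when 1 library was left out. Leaving out siNC replicate 1 gave the 0, with 538 genes at an unadjusted p under 0.05 in edgeR, and Qk then stayed at -3.09 with an adjusted p of 0.125. The median log2 fold change of the members ran from -0.171 to -0.0347 when libraries were left out.

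Directions turned as follows, and the cause was not tested. Without siNC replicate 3, Evl was at -0.0423, Wasl at 0.0334, Abi1 at 0.151 and the difference in the Evl share at -0.884 percentage points. Without siNC replicate 1, Vasp was at 0.0393 and the differences in the Enah and Wasf2 shares at -1.92 and -0.352 points. Without siQk replicate 2, Abi1 was at 0.0436 and the Wasf2 share difference at -2.70 points. Abi1 was also at 0.0231 with total counts, a scaling that moved the median of all genes to 0.028, and at 0.207 without siNC replicate 3 and siQk replicate 2. Over the leave-outs the log2 fold change ran from -0.0423 to 0.491 for Evl, from -0.320 to 0.0393 for Vasp, from -0.241 to 0.0334 for Wasl and from -0.105 to 0.207 for Abi1. It kept its sign for Enah (0.0925 to 0.329), Wasf1 (-0.476 to -0.171), Wasf2 (-0.333 to -0.0908), Wasf3 (0.153 to 0.381) and Abi2 (-0.263 to -0.0594). The Evl, Enah and Wasf2 share differences ran from -0.884 to 4.30, from -1.92 to 6.64 and from -2.70 to 2.71 points. Those of Vasp (-7.18 to -2.39), Wasf1 (-8.23 to -3.14) and Abi1 (0.575 to 4.86) kept their sign.

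The deviations of same-numbered libraries correlated at 0.213, 0.018 and -0.17, and 3 of 6 libraries correlated best with their own number, and no pairing was assumed. With a replicate block 1 gene was called, 0 members were called, Evl was at 0.321, and Abi1 turned to 0.007 as the 1 member to change direction. The limit on these values is the spread between 3 libraries per group, not depth, except for Was.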
